A study of Gallus gallus with 6 samples.

Results

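Of the regulators of non-neural ectoderm and epithelium examined here, the homeobox genes DLX5 and DLX6 and the splicing regulator gene ESRP2 were lower in Hb-eGFP+ cells than in RFP+ control cells, and none was higher. Each of the 3 was called by the brighter of its probe sets only. The group consists of 9 genes chosen by name: DLX3, DLX5, DLX6, TFAP2A, TFAP2C, ESRP1, ESRP2, GRHL2 and GRHL3. Under the annotation used here, 8 of them are read by 12 of the 38439 probe sets of the array, with 2 probe sets each for DLX5, DLX6, ESRP2 and GRHL3. GRHL2 had no probe set and was not analysed here. Every probe set with 1 of these gene names was kept, and none was dropped for a low signal.

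The surface ectoderm forms from epiblast cells that do not enter the neural plate. DLX homeobox factors and AP-2 factors (TFAP2A, TFAP2C) mark this ectoderm, where BMP signalling is high, and the border of the neural plate at gastrula and neurula stages. Grainyhead-like factors (GRHL2, GRHL3) keep surface cells epithelial and act on genes of adherens and tight junctions. ESRP1 and ESRP2 are RNA-binding proteins that impose epithelial splice forms and are lost when cells become mesenchymal. Hemangioblasts, the precursors of yolk sac blood and endothelium, are by contrast mesodermal cells that have left the epiblast through the primitive streak.

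Chick embryos were electroporated at HH3 with the reporter Hb-eGFP and with pCAGGS-RFP, and were harvested at HH5-6 in 3 pools of 4 embryos. In Hb-eGFP, eGFP is driven by regulatory DNA of the chick Cerberus gene placed before a minimal promoter of human beta-globin, while the ubiquitous CAGGS promoter drives RFP. The labels do not say which samples share a pool, so that p-values measure the spread between these samples only. From each pool, eGFP+ cells (Hb-eGFP+) and eGFP-/RFP+ cells (RFP+ control) were sorted, so that each group holds 3 samples with 1 array per sample. All cells of both groups come from electroporated embryos, and the RFP+ control is a mixture of electroporated cell types sorted as eGFP-.

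The GFP probe set read 17083 in Hb-eGFP+ cells and 926 in RFP+ control cells, and all 8 markers of blood and endothelial progenitors were higher in Hb-eGFP+ cells. Over all genes, 10.7% were lower and 9.19% higher. Markers of other tissues were lower in Hb-eGFP+ cells for 5 of 7 neuroectoderm genes, 4 of 5 endoderm genes and 6 of 8 genes of the streak and paraxial mesoderm, with none higher. The study had listed all 8 blood and endothelial markers, and OTX2, SOX17, MSGN1 and DLL1 of the lower ones, from these same arrays, so their direction is not independent evidence. These tissues differ between the groups together with the members below, and their part in the results was not tested. The array medians ranged from 87.7 to 91.1 intensity units. As a reference for dim signals, 743 probe sets whose names do not carry the chicken prefix of the array, mostly for virus and reporter sequences, had a 95th percentile of 82.0 to 92.9 on the 6 arrays. The GFP signal of the RFP+ control arrays, at 836 to 992, was above this percentile, and its source was not tested.

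DLX5 showed the largest fall of the members. The brighter of its probe sets had intensities of 691, 645 and 645 in the Hb-eGFP+ arrays and 2526, 2424 and 2415 in the RFP+ control arrays. The groups lay far apart, and the arrays of each group differed little from one another. The means were 660.2 ± 26.4 and 2455 ± 61.4 (SD, n = 3 each), a ratio of 3.72 in favour of the control cells. The log2 fold change was -1.90 (standard error 0.08, 95% interval -2.07 to -1.72, adjusted p = 2.7e-06 from limma over genes), the 69th lowest of the 13051 genes tested. This fold was far larger than the spread between the arrays of a group.

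The dimmer DLX5 probe set read 131, 123 and 147 in Hb-eGFP+ cells and 215, 146 and 162 in control cells. Here the groups overlapped by a narrow margin, since the third Hb-eGFP+ array was above the second control array. Its log2 fold change of -0.36 (95% interval -0.72 to -0.01) was not called (adjusted p = 0.20 from limma over probe sets). RFP+ control replicate 1 was the highest of its group, and without it the log2 fold change was -0.20.

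DLX6 lies next to DLX5 in the chicken genome, and the paired genes are commonly expressed together in vertebrate ectoderm, branchial arches and forebrain. The brighter of its probe sets had intensities of 56.7, 57.1 and 62.4 in Hb-eGFP+ cells and 119.6, 116 and 92.9 in control cells. Every Hb-eGFP+ array was below every control array. The mean fell from 109.6 ± 14.6 in control cells to 58.7 ± 3.18 (SD, n = 3 each), a log2 fold change of -0.89 (standard error 0.12, 95% interval -1.16 to -0.62, adjusted p = 0.0011 from limma over genes). The Hb-eGFP+ values lay below the 95th percentile of the non-chicken probe sets and the control values above it.

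The dimmer DLX6 probe set read 23.8 to 33.7 in Hb-eGFP+ cells and 23.8 to 37.4 in control cells. Both ranges were near the median of the non-chicken probe sets, which was 28.9 to 30.3. Its log2 fold change was -0.05 (95% interval -0.50 to 0.40), with adjusted p = 0.91 from limma over probe sets.

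DLX3, a factor of the surface ectoderm and later of skin and placodes, was dim in both groups. Its probe set read 63.1, 53.3 and 62.5 in Hb-eGFP+ cells and 57.3, 55.3 and 59.9 in control cells. The control arrays lay inside the range of the Hb-eGFP+ arrays, and all 6 values were under the 95th percentile of the non-chicken probe sets. The log2 fold change was 0.05 with a 95% interval of -0.17 to 0.27 (adjusted p = 0.74 from limma over genes). The interval of a probe set this dim does not bound the change of the gene, which also holds for the dim probe sets below.

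**Figure D1:**
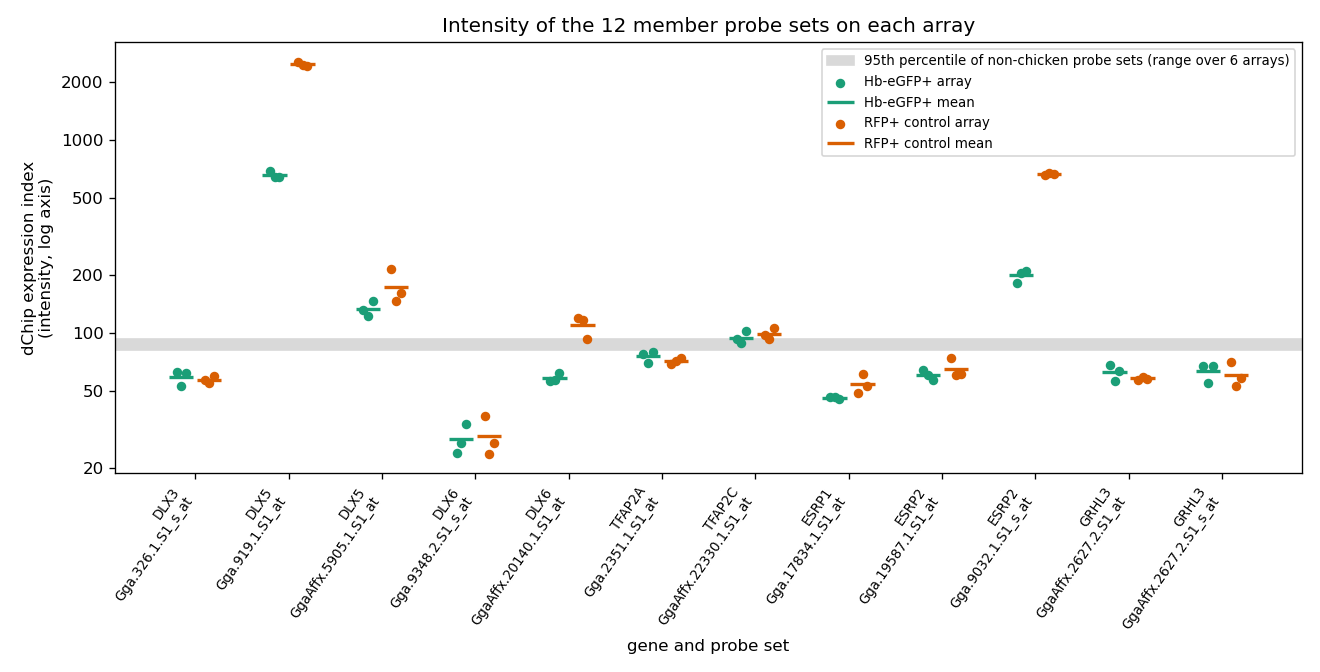
Intensity (dChip expression index, log axis) of the 12 probe sets of the 8 measured genes, with 1 point per array, bars for the mean of the 3 arrays of a group, and a grey band for the 95th percentile of 743 non-chicken probe sets on the 6 arrays. The groups stand clear of each other for the brighter probe sets of DLX5, DLX6 and ESRP2, while 7 probe sets lie under the band on all arrays.

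The AP-2 genes did not pass the test. TFAP2A, which is required in vertebrates for neural crest and epidermis, read 77.7, 69.8 and 80.2 in Hb-eGFP+ cells and 69.3, 71.7 and 74.5 in control cells. Its arrays overlapped, with a log2 fold change of 0.08 (95% interval -0.12 to 0.28, adjusted p = 0.54 from limma over genes). TFAP2C, an AP-2 factor of early ectoderm, read 92.9, 88.9 and 102.5 in Hb-eGFP+ cells against 97.5, 92.7 and 106.8. Its log2 fold change was -0.06 (95% interval -0.28 to 0.16, adjusted p = 0.65 from limma over genes).

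TFAP2A and TFAP2C differed in how far they stood above dim signals. The TFAP2C values were above the 95th percentile of the non-chicken probe sets on all 6 arrays, although by a small margin, and those of TFAP2A on none. On Hb-eGFP+ replicate 2 TFAP2C read 88.9, where the percentile was 86.9. The 95% interval of the TFAP2C fold, Hb-eGFP+ over RFP+ control, ran from 0.821 to 1.12. With signals this near the percentile, it does not bound the change of the gene.

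GRHL3, needed for neural tube closure and the skin barrier in the mouse, was read by probe sets that differ in name only by their suffix and may share probes. The one with the suffix _at gave 56.8 to 68.4 in Hb-eGFP+ cells and 57.2 to 59.6 in control cells. The one with the suffix _s_at gave 55.3 to 67.8 and 53.3 to 70.5. Both overlapped between the groups, with log2 fold changes of 0.11 (95% interval -0.11 to 0.32) and 0.06 (95% interval -0.25 to 0.37) and adjusted p of 0.54 and 0.82 from limma over probe sets. All 6 arrays were under the 95th percentile of the non-chicken probe sets for both.

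The splicing regulator ESRP2 fell nearly as far as DLX5. The brighter of its probe sets read 182, 205 and 210.0 in Hb-eGFP+ cells and 656, 675 and 665 in control cells. The groups lay far apart, and the control arrays were close to one another. The mean fell from 665 ± 9.59 in control cells to 199 ± 15.2 (SD, n = 3 each), a ratio of 3.35 in favour of the control cells. The log2 fold change was -1.75 (standard error 0.09, 95% interval -1.95 to -1.55, adjusted p = 7.5e-06 from limma over genes), the 85th lowest of 13051 genes.

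The other ESRP2 probe set was dim. It read 64.3, 60.8 and 57.5 in Hb-eGFP+ cells and 74.1, 60.7 and 61.2 in control cells, with overlapping arrays and a log2 fold change of -0.10 (95% interval -0.34 to 0.15, adjusted p = 0.63 from limma over probe sets). All of its values were below the 95th percentile of the non-chicken probe sets.

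ESRP1, the paralogue of ESRP2, read 46.6, 46.6 and 45.4 in Hb-eGFP+ cells and 49.0, 61.1 and 53.1 in control cells. Every Hb-eGFP+ array was below every control array, but the gap between the nearest arrays was small and the control arrays were spread. The log2 fold change of -0.23 (standard error 0.10) did not pass the test (adjusted p = 0.12 from limma over genes), and all values were under the 95th percentile of the non-chicken probe sets.

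By probe set, limma called 3 of 12 lower and none higher, where 5.05% of all 38439 probe sets were lower and 4.02% higher. The unadjusted p was under 0.05 for 1 more, the second DLX5 probe set, which also had the lower direction. By gene, with each gene represented by its brightest probe set, 3 of the 8 measured genes were lower and none was higher, where 10.7% of 13051 genes were lower and 9.19% higher. In 4 of the 12 probe sets every Hb-eGFP+ array was below every control array, which held for 14.1% of all probe sets. The study's methods call a probe set where the lower bound of the 90% interval of its fold exceeds 1.7. Here this threshold was applied to the ratio of the group means of the deposited intensities. The interval came from the spread between the 3 arrays of a group, in place of the errors dChip estimates. It used a normal quantile, which gives a narrower interval than a t quantile would with 3 arrays. Its calls, 501 probe sets lower and 276 higher, need not match those of the study. The brighter DLX5 and ESRP2 probe sets passed with bounds of 3.56 and 3.12, where 1.3% of all probe sets passed in this direction. DLX6 had a bound of 1.62 and did not pass.

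The median log2 fold change was -0.08 over the 12 probe sets and 0.02 over all probe sets, and -0.15 over the 8 genes and 0.01 over all genes. The 9 probe sets that were not called had log2 fold changes between -0.36 and 0.11. Of these, 7 were above the 95th percentile of the non-chicken probe sets on no array, so a fall of their genes could have gone unseen, and those of TFAP2C and the second of DLX5 were above it on all 6. In these sorted populations, fewer cells of a type and less RNA per cell cannot be told apart.

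**Figure D2:**
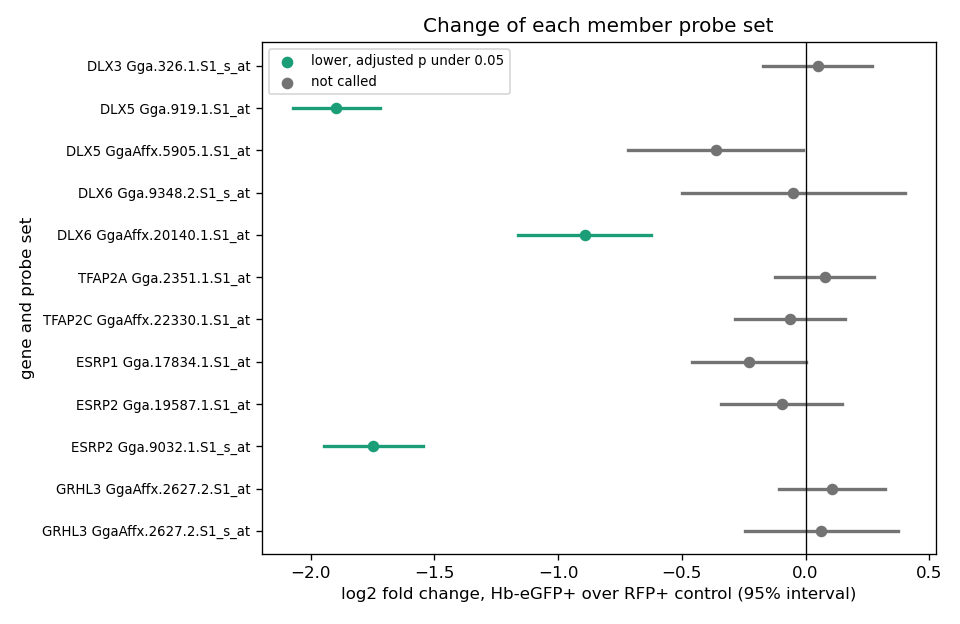
Log2 fold change of each of the 12 probe sets, Hb-eGFP+ over RFP+ control, with its 95% interval from limma (n = 3 arrays each). The 3 called probe sets, of DLX5, DLX6 and ESRP2, lie at -1.90, -0.89 and -1.75, and the others between -0.36 and 0.11.

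DLX5 was the only gene with 2 probe sets that were both above the 95th percentile of the non-chicken probe sets on all 6 arrays. The gap between its brighter and its dimmer probe set, as a difference of log2 intensities on each array, was 2.40, 2.39 and 2.13 in Hb-eGFP+ cells and 3.56, 4.06 and 3.90 in control cells. Every control gap was wider than every Hb-eGFP+ gap, with a mean difference, Hb-eGFP+ minus control, of -1.53. The exact permutation test over the 20 assignments of the arrays gave a two-sided p = 0.1, the smallest that 3 arrays against 3 allow, and 0.13 after Benjamini-Hochberg adjustment over the 4 genes with 2 probe sets. For DLX6, ESRP2 and GRHL3 the dimmer probe set was above that percentile on no array, so their gaps are not reported. Which transcripts each probe set reads was not tested, nor was the effect of dim signal on the fold of the dimmer DLX5 probe set.

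Other members of the same families, with relatives of the grainyhead genes, were compared from a list of 10 genes, of which 7 were measured. None was lower, and only TFAP2E was higher, by a log2 fold change of 0.42 (adjusted p = 0.025 from limma over genes). Its intensities were 54 to 62 in Hb-eGFP+ cells and 39.7 to 49.1 in control cells, all under the 95th percentile of the non-chicken probe sets, and the call was lost without any 1 of Hb-eGFP+ replicates 1 and 3 and RFP+ control replicates 1 and 2, as well as in the fit over probe sets. The grainyhead family gene GRHL1 (0.13), its relative UBP1 (0.09) and DLX1 (0.01) did not pass. TFCP2 (0.07), TFCP2L1 (0.13) and TFAP2B (-0.12) did not pass either. They read 24.9 to 77.4 over both groups, under the 95th percentile of the non-chicken probe sets, so a fall could have gone unseen. The median of the 7 genes was 0.09. For this list and those below, the shares over all 13051 genes were 10.7% lower and 9.19% higher.

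Among 24 further regulators of non-neural ectoderm, placodes and the neural plate border, 18 were measured, of which 4 were lower and 1 was higher. The phosphatase and cofactor gene EYA2, a placode regulator, had intensities of 80.9, 81.7 and 74.5 in Hb-eGFP+ cells and 365, 404 and 402 in control cells, the former under the 95th percentile of the non-chicken probe sets. The fitted log2 fold change was -2.30 with a standard error of 0.08 (limma over genes, adjusted p = 2.7e-06), a larger fall than that of DLX5. HESX1, a homeobox gene of the anterior ectoderm, fell by 0.56 on the log2 scale, GATA3 by 1.06 and VGLL1 by 0.28. The GATA3 signals were 15.3 to 24.3 in Hb-eGFP+ cells and 34.7 to 52.9 in control cells and those of VGLL1 53.9 to 58.0 and 64.2 to 72.4, all under the 95th percentile of the non-chicken probe sets, and VGLL1 passed in the fit over genes but not in that over probe sets. MSX1, a BMP-responsive homeobox gene of the neural plate border and of mesoderm, was higher by 0.42 at 3016 ± 57 against 2260 ± 71 (SD, n = 3 each). TP63, a master regulator of stratified epithelium, and GATA2, which serves both ectoderm and blood, had log2 fold changes of 0.30 and 0.17 and did not pass (adjusted p = 0.12 and 0.52 from limma over genes). The only GATA2 probe set was dim, at 55.9 to 85.7 in Hb-eGFP+ cells and 57.1 to 69.7 in control cells. These values did not stand clear of the 95th percentile of the non-chicken probe sets, so a change of GATA2 could have gone unseen. EYA1, KLF4, FOXI1, PAX7, TBX2 and TBX3 did not pass either. All their values were under this percentile, so a change of these genes could also have gone unseen. The 4 lower genes became 2 without Hb-eGFP+ replicate 1. They became 3 without any 1 of Hb-eGFP+ replicates 2 and 3 and RFP+ control replicates 1 and 3. The median of the 18 was -0.05.

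BMP ligands and genes that respond directly to BMP signalling were split in direction. Of 10 measured genes, 4 were higher and 2 were lower. The inhibitors of bHLH factors ID1 and ID4 rose by log2 fold changes of 0.71 and 0.58, and the inhibitory SMAD genes SMAD6 and SMAD7 by 0.43 and 0.34. The ligand genes BMP2 and BMP7 fell by 0.49 and 0.42 on the log2 scale. BMP4 had a log2 fold change of -0.29 and did not pass (adjusted p = 0.082 from limma over genes). Its intensities of 66.5 to 95.2 were near the 95th percentile of the non-chicken probe sets. For BMP2 only 1 of 3 probe sets was called, and SMAD7 and BMP7 passed in the fit over genes but not in that over probe sets. The 2 lower genes became 3 without Hb-eGFP+ replicate 1 and 1 without any 1 of Hb-eGFP+ replicates 2 and 3 and RFP+ control replicates 2 and 3. The 4 higher genes became 3 without any 1 of Hb-eGFP+ replicates 1 and 3 and RFP+ control replicates 2 and 3. The median of the 10 was 0.05.

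Genes of epithelial adhesion and junctions, on which grainyhead-like factors are known to act in the mouse, included falls as large as that of DLX5. Of 43 genes listed, 30 were measured, of which 9 were lower and 2 were higher. CDH1, which encodes E-cadherin of adherens junctions, read 207 to 252 in Hb-eGFP+ cells and 869 to 907 in control cells (-1.93 on the log2 scale with a standard error of 0.09 and adjusted p = 8.5e-06, limma over genes). The tight junction gene CLDN3 had a log2 fold change of -2.10, CLDN1 one of -1.20 and the epithelial adhesion gene EPCAM one of -1.17, the last with all 3 of its probe sets lower. EVPL, PATJ and PPL were also lower, and so was ST14, by both of its probe sets (log2 fold change -0.54). In the fit over probe sets, only 1 of 3 EVPL, 1 of 7 PATJ and 1 of 3 PPL probe sets were called lower. PPL was dim, at 50.8 to 67.2 in Hb-eGFP+ cells and 91.6 to 98.6 in control cells. The chemokine gene CXCL14, expressed in ectodermal derivatives, had -2.02. It is counted in this list and among its lower genes, although it is not a gene of adhesion or junctions. The study had listed CDH1 and CXCL14 from these same samples, so their direction is not independent evidence.

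Other genes of the list were higher or did not pass. CLDN5, the claudin of endothelial tight junctions, was higher at 319 ± 11 against 137 ± 21 (SD, n = 3 each; log2 fold change 1.23, adjusted p = 0.00023 from limma over genes), by both of its probe sets. The desmosomal gene DSP was higher by 0.33 (adjusted p = 0.020 from limma over genes) but by none of its 3 probe sets in the fit over probe sets. The 2 higher genes became 1 when any 1 of 4 arrays was left out: RFP+ control replicates 1 and 3 and Hb-eGFP+ replicates 2 and 3. The keratin gene KRT7 (-0.08), the plakoglobin gene JUP (-0.12) and the polarity gene LLGL2 (0.02) were bright and did not pass. The median of the 30 genes was -0.15.

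**Figure D3:**
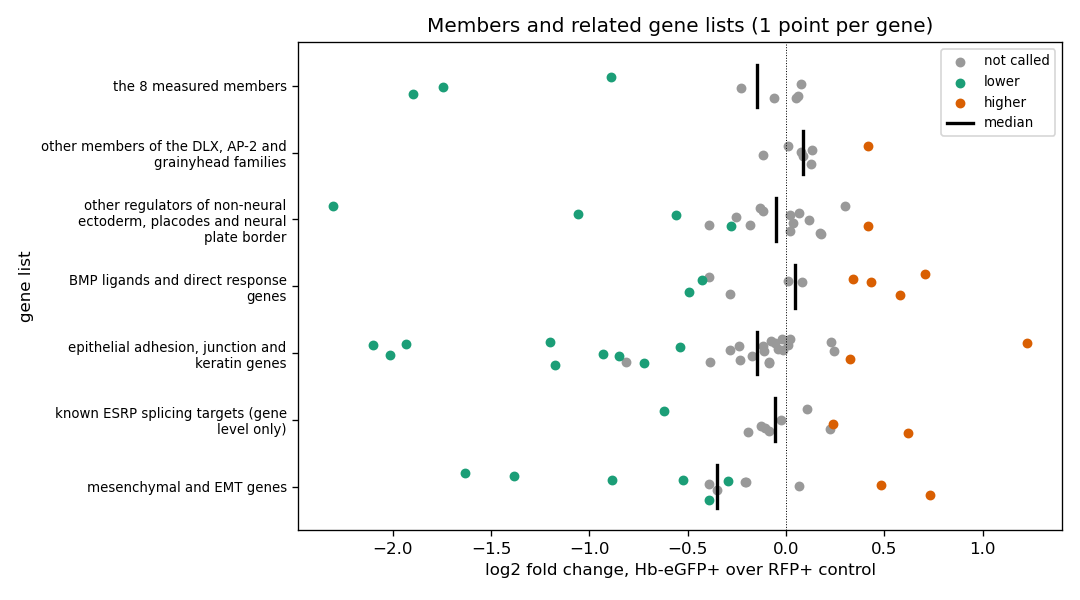
Log2 fold change of each gene, Hb-eGFP+ over RFP+ control, for the 8 measured members and 6 related lists, with 1 point per gene and a black bar for the median. Colours give the limma call, from the fit over probe sets for the members and from the fit over genes for the lists. The lowest points are EYA2 at -2.30, CLDN3 at -2.10 and CXCL14 at -2.02, and every median lies between -0.35 and 0.09.

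Genes whose transcripts are known ESRP targets in mammals were compared at the gene level, since the array values used here do not separate splice forms. Of 10 measured genes, 1 was lower and 2 were higher, where 10.7% of all genes were lower and 9.19% higher. FGFR2, whose alternative exons give epithelial and mesenchymal receptor forms, read 1215, 1187 and 1441 in Hb-eGFP+ cells and 2114, 1967 and 1810 in control cells (-0.62 on the log2 scale with a standard error of 0.10 and adjusted p = 0.0044, limma over genes). It was lower by 3 of its 5 probe sets, with log2 fold changes of -0.56, -0.72 and -0.62, and the remaining ones were dim. FGFR3 and CTNND1, the gene of p120 catenin, were higher by 0.62 and 0.24, with adjusted p of 0.037 and 0.046 from limma over genes, and by none of their 4 probe sets each in the fit over probe sets. Leaving out any 1 array left 1 or 0 of these 2 calls. SCRIB, CD44 and ENAH had log2 fold changes of -0.19, 0.11 and -0.09 and did not pass.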

How the data were processed

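Total RNA from 3 Hb-eGFP+ and 3 RFP+ control samples (40 ng each) was amplified to labelled cRNA. Fragmented cRNA was then hybridized to the Affymetrix Chicken Genome Array. Scans were made by the authors with GCOS 1.4, and dChip was used to normalize the arrays and to reduce the Perfect Match probes of a probe set to 1 expression index. The deposited values are these linear intensities for 38439 probe sets. The sources used here do not give the dChip normalization method. The number of arrays limits the precision.

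Intensities were taken to log2 (values below 1 set to 1) without further normalization. The groups were compared with limma 3.58.1 in R 4.3.3 (lmFit and eBayes, two-sided) with no term besides group, first over all probe sets and then over 13051 genes, where the probe set of highest mean log2 intensity stood for a gene. P-values were adjusted by Benjamini-Hochberg, with a threshold of 0.05. The calculations were tested on simulated data, with changes planted only in probe sets above the median control level. Recovery of changes in dimmer probe sets was not tested. Gene names come from the array's platform annotation, joined by gene ID to the RefSeq table of the chicken assembly GRCg7b, which held all 12 member probe sets' genes. Of all probe sets, 27168 had 1 gene, 177 several and 11094 were not named here.

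The members and the gene lists were chosen with earlier results of these data known. Named genes are all members with every probe set and genes chosen from each list. These are up to 4 genes with the smallest adjusted p and the leading called gene of the other direction. For the markers of blood and endothelium, neuroectoderm, endoderm, streak and paraxial mesoderm, counts are given and not every such gene is named. DLX1, TFAP2B, TFCP2L1, VGLL1, TP63, GATA2, SMAD7, BMP7, EPCAM, EVPL, PATJ, PPL, ST14, DSP, KRT7, JUP, LLGL2, CD44, ENAH, FN1, SNAI1, SNAI2, VIM, ZEB2, GATA4 and TBX20 fall outside this rule and were named after their values were seen. The same holds for OCLN, MARVELD2, PKP3, PARD6B, DSG2, KRT5, EYA1, KLF4, FOXI1, PAX7, TBX2 and TBX3. Alternatives changed the scaling (quantile, median), the treatment of dim signals (left out, or raised by an offset of 50), the variance model, the fold required (1.7), the block and the arrays entered.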

Additional observations from a re-analysis of the deposited data

How the results depend on the processing

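The counts of 3 lower and 0 higher probe sets held under quantile normalization, median centring, an offset of 50, an intensity trend with robust variances and each of the 6 arrays left out. They became 2 lower with dim probe sets removed, with a minimum fold of 1.7 and by the lower 90% bound, in each case without DLX6, which the first of these settings did not test. The log2 fold change of the brighter DLX5 probe set ranged from -1.93 to -1.82 over the 12 alternatives without a required fold, that of ESRP2 from -1.79 to -1.53, and that of DLX6 from -1.01 to -0.55 over 11, all called, with -0.55 under the offset of 50. No member probe set outside these 3 was called under any alternative. The sign turned for uncalled dim probe sets only. With arrays left out in turn, the log2 fold change of the dimmer DLX6 probe set lay between -0.19 and 0.14 (0.06 and 0.14 without the first array of the Hb-eGFP+ group and of the control group). That of the GRHL3 probe set with the suffix _s_at lay between -0.026 and 0.18, with the lowest value without RFP+ control replicate 2. The cause was not tested. Among the related lists, with dim probe sets removed the 4 lower ectoderm regulators became 2 and the TFAP2E call was lost. The 2 lower BMP genes and the 2 higher ESRP targets became 1 each under quantile normalization and the replicate block. The higher ESRP targets also became 1 with the intensity trend and robust variances. The 6 lower genes of mesenchyme and of the epithelial to mesenchymal transition became 4 with the replicate block. The 4 lower ectoderm regulators became 3 with the offset of 50, with the intensity trend and robust variances, and with the replicate block.

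Samples with the same replicate number did not deviate together (correlations of -0.12, -0.05 and 0.10 over all probe sets), and the labels do not say that a number marks a pool. With the replicate number as a block (replicate block), 3 member probe sets were lower and 0 higher, whereas the counts over all probe sets went from 1941 to 1248 lower and from 1545 to 900 higher. The adjusted p from limma over probe sets rose from 1.6e-05 to 0.0010 for DLX5 and from 0.0031 to 0.022 for DLX6. For ESRP2 it rose from 4.1e-05 to 0.0014.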

Other observations

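Genes of mesenchyme and of the epithelial to mesenchymal transition were compared as the counterpart of the epithelial regulators. Of 13 measured genes, 6 were lower and 2 were higher in Hb-eGFP+ cells, with a median log2 fold change of -0.35. The 6 lower genes became 4 or 5 when any 1 array was left out. The study had listed CDH2 from these same samples, and gives its expression in early embryos as primitive streak and neuroectoderm. Markers of these tissues were also lower in Hb-eGFP+ cells, and their part in this list was not tested. The lower ones included TWIST1, a bHLH factor of mesenchyme, at 370 ± 7.4 against 963 ± 9.1 (SD, n = 3 each), CDH2, the gene of N-cadherin, with a log2 fold change of -1.63, and PRRX1 with -0.88 by all 3 of its probe sets. The zinc finger repressor ZEB1, which represses epithelial genes and ESRP genes in mammals, was higher by 0.73 (adjusted p = 0.00059 from limma over genes) and by 2 of its 4 probe sets. FN1, the gene of the matrix protein fibronectin, was higher by 0.48, with 2 of its 8 probe sets called. SNAI2 fell by 0.52, while SNAI1 (-0.39), VIM (-0.21) and ZEB2 (0.07) did not pass the test.

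None of 6 genes of lateral and extraembryonic mesoderm or ectoderm passed the test in either direction. HAND1, HAND2 and FOXF1 had log2 fold changes of 0.08, -0.24 and -0.11, with adjusted p of 0.55, 0.12 and 0.65 from limma over genes. The intensities of BMP4, FOXF1, GATA4 and TBX20 lay between 63.9 and 95.2 in both groups. This is near the 95th percentile of the non-chicken probe sets, so a change of these genes could have gone unseen. The 95% intervals of BMP4 and HAND2 lay below 0 before adjustment, and 1 gene was called lower without Hb-eGFP+ replicate 1 or 2.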
